A study of Mus musculus with 6 samples.

Results

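These data describe 2115 Gli3 binding regions found in the whole developing mouse face that overlap neither Gli3 nor Hand2 binding in the mandibular prominence (MNP), the embryonic lower jaw. They were selected from the 5752 peaks of the whole face Gli3 list as those that share no bp with any of 5427 Gli3 MNP peaks and no bp with any of 59583 Hand2 MNP peaks. The peaks of 3 ChIP-seq groups were used, each with 2 samples: Gli3 in whole face (frontonasal, maxillary and mandibular prominences together), Gli3 in MNP, and Hand2 in MNP. All embryos were of the CD1 strain, with no treatment named, and labelled E11.5, while the design text of the series gives E10.5. The embryos carried a FLAG tag in the endogenous *Gli3* or *Hand2* gene (labelled 3XFlagbio for both, while the study's methods name the *Hand2* allele 3xFlag), chromatin was precipitated with FLAG antibody, and tissue was pooled over embryos. The whole face contains the MNP, so an absence from the MNP list means that no peak was called there, not that Gli3 was absent. Each list holds both replicates merged, with positions and entry names but no heights or read counts. Depth is therefore unknown, and the tests below count peaks, which are not replicates of animals.

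Gli3 is a zinc-finger transcription factor that carries the Hedgehog (Hh) signal into the nucleus, as an activator when the signal is received and mainly as a repressor when it is not. Gli factors bind the 8-mer GACCACCC with high affinity, and the study treats GACCTCCC as a divergent, lower-affinity form. Hand2 is a basic helix-loop-helix factor of the distal lower jaw that binds E-boxes (CANNTG), among them CAGATG. Sonic hedgehog from facial epithelia patterns the neural crest mesenchyme of the upper face as well as the jaw.

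For comparison the other whole face Gli3 peaks were split by the same overlaps. Of them, 901 overlapped a Gli3 MNP peak but no Hand2 peak (face and MNP without Hand2), 1475 overlapped only a Hand2 peak (face-only with Hand2), and 1261 overlapped both (face and MNP with Hand2). The face-only peaks without Hand2 made up 36.8% of the list (95% Wilson interval 35.5% to 38.0%). This and all later intervals cover counting error only. The member closest to a Gli3 MNP peak abutted it with a gap of 0 bp, and the next 2 lay 24 and 72 bp away. On the other side of the threshold, the smallest overlaps with the MNP list were 1, 8 and 16 bp. The gaps to the nearest Hand2 peak began at 2, 3 and 6 bp, and the smallest Hand2 overlaps were 1, 2 and 5 bp. In all, 28 members had a Gli3 MNP peak within 500 bp and 176 a Hand2 peak, and the median gap was 121384 bp to a Gli3 MNP peak and 8558 bp to a Hand2 peak.

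The sequences of 7 members are given because they show the Gli 8-mer in its different settings: several copies, beside Hh genes, beside an upper face gene, in the divergent form, and inside a repeat. All are the plus strand of mm10 from 5′ to 3′, with GACCACCC or GACCTCCC, or the reverse complement GGGTGGTC or GGGAGGTC, in capitals. The first held more copies of GACCACCC than any other member and lay in an intron of *Slc39a11*, and the second held 2 copies in an intron of *Fgf18*, a fibroblast growth factor gene, 2147 bp from its transcription start site (TSS).
Slc39a11 intron, chr11:113343799-113343998: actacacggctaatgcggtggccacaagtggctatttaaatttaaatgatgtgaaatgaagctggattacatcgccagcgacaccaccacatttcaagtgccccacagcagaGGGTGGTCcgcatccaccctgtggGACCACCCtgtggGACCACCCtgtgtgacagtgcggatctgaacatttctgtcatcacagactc
Fgf18 intron, chr11:33145118-33145388: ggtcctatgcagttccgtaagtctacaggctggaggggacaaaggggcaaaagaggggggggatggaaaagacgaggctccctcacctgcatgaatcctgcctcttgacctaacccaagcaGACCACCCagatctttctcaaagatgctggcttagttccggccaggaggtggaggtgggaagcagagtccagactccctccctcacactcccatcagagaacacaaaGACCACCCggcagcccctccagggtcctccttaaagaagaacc
Those beside Hh genes lay in an intron of *Ptch1*, the Shh receptor, 17093 bp from its TSS, and 121361 bp from the TSS of *Hhip*, whose product binds Hh ligands and limits signaling.
Ptch1 intron, chr13:63556370-63556640: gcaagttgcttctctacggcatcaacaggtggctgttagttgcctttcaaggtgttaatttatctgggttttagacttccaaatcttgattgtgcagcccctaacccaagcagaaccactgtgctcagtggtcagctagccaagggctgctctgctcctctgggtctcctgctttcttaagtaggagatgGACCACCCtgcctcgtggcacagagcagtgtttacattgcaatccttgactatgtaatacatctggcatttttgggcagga
Hhip side, chr8:79936522-79936767: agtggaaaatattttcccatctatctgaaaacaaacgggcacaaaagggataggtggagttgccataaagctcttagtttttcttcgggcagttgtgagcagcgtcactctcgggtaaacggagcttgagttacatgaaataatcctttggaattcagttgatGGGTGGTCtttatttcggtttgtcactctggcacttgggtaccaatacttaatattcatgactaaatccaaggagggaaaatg
A member with GACCACCC beside an upper face gene lay 60138 bp from *Lhx8*, a LIM homeobox gene of the palate and maxillary mesenchyme.
Lhx8 side, chr3:154270415-154270626: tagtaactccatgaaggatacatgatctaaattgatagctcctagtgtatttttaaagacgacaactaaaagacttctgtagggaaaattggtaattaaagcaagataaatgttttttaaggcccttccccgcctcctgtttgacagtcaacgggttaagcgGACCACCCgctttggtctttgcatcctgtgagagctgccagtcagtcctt
The next member, 121544 bp from *Foxd1*, a forkhead gene, held GACCTCCC and no GACCACCC. The TSS nearest to it was that of *Gm10320*, at 16215 bp. It also held GGCCACCC, in lower case, which differs from GACCACCC by 1 base.
Foxd1 side, chr13:98475679-98475892: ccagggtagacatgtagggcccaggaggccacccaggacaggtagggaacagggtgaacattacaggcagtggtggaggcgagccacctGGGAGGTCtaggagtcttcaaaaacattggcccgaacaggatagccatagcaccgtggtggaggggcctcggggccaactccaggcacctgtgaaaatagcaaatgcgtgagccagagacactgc
The last came from a recurring repeat, 1436 bp from the TSS of *Tet2*, with GACCTCCC and a 14-mer shared by many members both in capitals.
Tet2 side, chr3:133546472-133546677: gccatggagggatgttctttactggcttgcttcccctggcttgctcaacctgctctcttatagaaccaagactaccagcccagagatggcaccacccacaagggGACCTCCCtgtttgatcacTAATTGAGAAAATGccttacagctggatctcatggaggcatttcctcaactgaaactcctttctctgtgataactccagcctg

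Face-only peaks without Hand2 carried the Gli 8-mer in its high-affinity form far more often than the face-only peaks that overlapped Hand2. In the middle 200 bp, GACCACCC was present in 478 of 2115 members, 22.6% (20.9% to 24.4%). It was present in 6.85% of face-only peaks with Hand2 (5.67% to 8.25%), 28.5% of face and MNP peaks without Hand2 (25.7% to 31.6%) and 16.1% of face and MNP peaks with Hand2 (14.2% to 18.2%). The share in members was thus above both Hand2 classes and below the face and MNP peaks without Hand2. By Fisher's exact test (two-sided, adjusted by Benjamini-Hochberg over 99 tests of 33 words in 3 comparisons), the odds ratio was 3.97 against face-only peaks with Hand2 (95% interval 3.17 to 4.98, adjusted p = 8.42e-38). It was 1.52 against face and MNP peaks with Hand2 (exact test, adjusted p = 5.93e-05) and 0.732 against face and MNP peaks without Hand2 (adjusted p = 0.00332). In a logistic model with GC content and peak width the 3 odds ratios were 3.95, 1.35 and 0.631, with adjusted p-values of 1.73e-30, 0.0187 and 2.07e-05 over the 99 fits.

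**Figure D1:**
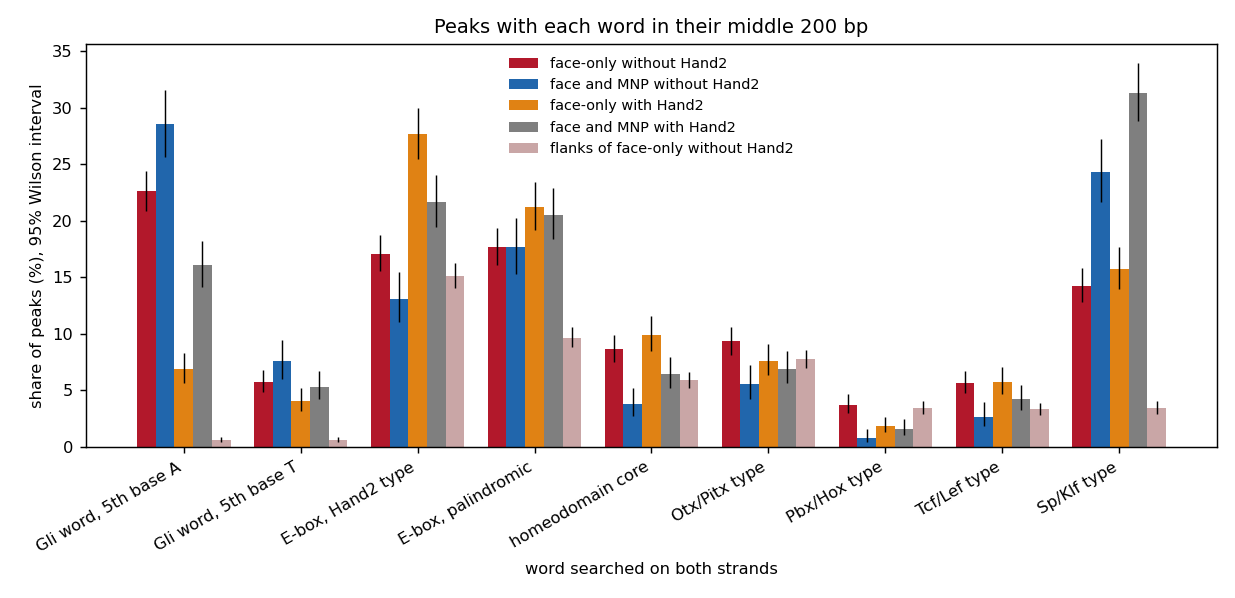
Share of peaks (%, y axis, with 95% Wilson intervals) that held each word in the middle 200 bp, for the 4 classes of whole face Gli3 peaks and for windows 2 kb to either side of the face-only peaks without Hand2. The words are the Gli words with A (GACCACCC) and T (GACCTCCC), the Hand2-type (CAGATG) and palindromic (CAGCTG) E-boxes, homeodomain core (TAATTA), Otx/Pitx (TAATCC), Pbx/Hox (TGATTNAT), Tcf/Lef (CTTTGAT) and Sp/Klf (GGGCGG) types, and GACCACCC stood at 22.6% in face-only peaks without Hand2, 28.5%, 6.85% and 16.1% in the other classes, and 0.615% in the flanks.

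The 8-mer was concentrated in the peaks themselves. Windows of the same width 2 kb to either side of the members held GACCACCC in 26 of 4230 cases, 0.615%. Over whole peaks there were 529 occurrences in members against a mean of 15 per set of flanks, 35.3-fold. The same ratio was 17.2-fold in face-only peaks with Hand2 (112 against 6.5), 51.8-fold in face and MNP peaks without Hand2 (311 against 6) and 28.5-fold in face and MNP peaks with Hand2 (228 against 8). Of the members, 1599 held no GACCACCC anywhere in the peak, 504 held 1 copy, 11 held 2 and 1 held 3. The 3 copies of the *Slc39a11* peak printed above lay on both strands, and the closest pair started 13 bp apart. Members with 2 copies lay in introns of *Irs1*, *Fgf18*, *Pkhd1l1*, *Grk2* and *Pld1*, and between genes with *Sgo2a*, *D630036H23Rik*, *Asap1*, *Slc7a11*, *Pex26* and *Sc5d* nearest. The start positions of their copies were 12 bp (*Pld1*) to 290 bp (*Irs1*) apart.

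The 8-mer did not sit symmetrically in the members. Of 496 occurrences within 100 bp of a peak midpoint, 386 (77.8%) lay on the side of higher coordinates, with a median of 33.5 bp from the midpoint. The same side held 81.1%, 69.9% and 81.7% in face and MNP peaks without Hand2, face-only peaks with Hand2 and face and MNP peaks with Hand2. In the Gli3 MNP list it held 47.9%, with a median of -1 bp. The displacement was thus common to the whole face list and was not seen in the MNP list. How it arose was not tested. Moving every whole face peak by the list's median of 33 bp left 2115 members, 2109 of them the same, and a GACCACCC odds ratio of 4.11 against face-only peaks with Hand2.

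**Figure D2:**
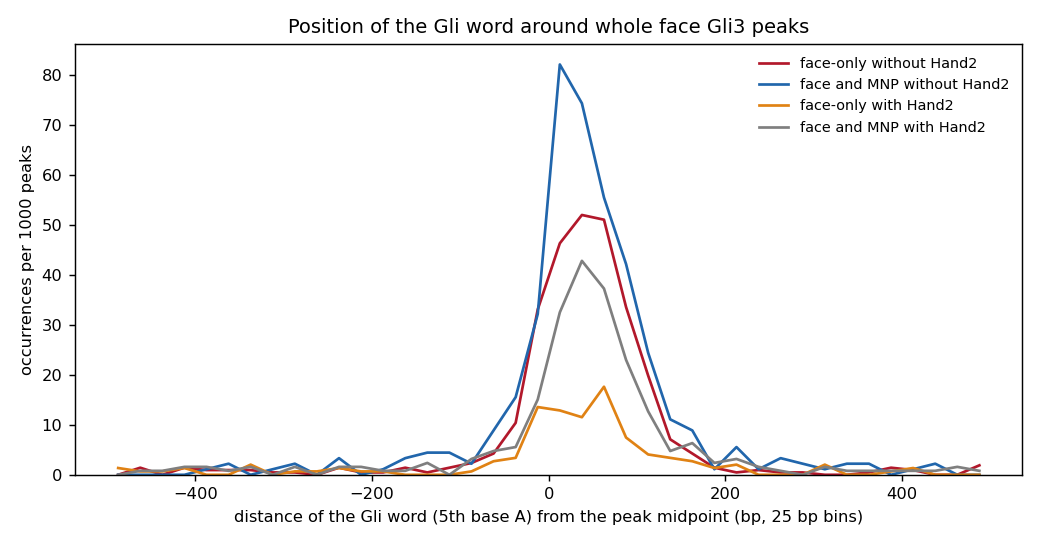
Occurrences of GACCACCC per 1000 peaks (y axis) by distance from the peak midpoint in 25 bp bins (x axis), for the 4 classes. Most occurrences lie to the right of the midpoint in all 4 lines, and 77.8% of the occurrences within 100 bp in face-only peaks without Hand2 lay on that side.

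The bases next to the 8-mer were also uneven. The base after GACCACCC was A at 403 of 496 occurrences in members, 81.3%. It was A at 70.9% of 103 occurrences in face-only peaks with Hand2 (odds ratio 1.78, exact p = 0.0224), 76.5% of 285 in face and MNP peaks without Hand2 (odds ratio 1.33, p = 0.118) and 62.0% of 208 in face and MNP peaks with Hand2 (odds ratio 2.65, p = 1.56e-07). These p-values of Fisher's exact test are unadjusted, over 3 comparisons made after the values were seen. The base before it was A or G in most members, with 46.0% A and 37.1% G, and only 5.65% C.

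The divergent form was less frequent. GACCTCCC was present in the middle of 121 members, 5.72%, compared to 4.07% of face-only peaks with Hand2 (exact adjusted p = 0.0733), 7.55% of face and MNP peaks without Hand2 (adjusted p = 0.12) and 5.31% of face and MNP peaks with Hand2 (adjusted p = 0.785). None of these differences passed the adjusted test, which does not show that the shares were alike. The odds ratio against face-only peaks with Hand2 was 1.43. It passed without promoter peaks (1.61, adjusted p of 0.0334) and with the peaks moved by 33 bp (1.49, adjusted p of 0.0336), and was 1.19 without peaks at least 50% soft-masked. Without those peaks the odds ratio against face and MNP peaks with Hand2 was 0.791, against 1.08 with them. Against their own flanks (0.615%) the members had it 9.31-fold more often on either side (exact McNemar test, adjusted p = 4.47e-22 and 1.56e-22). At the variable base of GACCNCCC, members had 529 A and 136 T over the whole peak, against 112 A and 68 T in face-only peaks with Hand2. The odds ratio of T over A was 0.423 (0.297 to 0.604, Fisher's exact p = 3.35e-06). Against face and MNP peaks without Hand2, with 311 A and 87 T, it was 0.919 (0.679 to 1.24, exact p = 0.587). Against face and MNP peaks with Hand2, with 228 A and 78 T, it was 0.751 (0.546 to 1.03, exact p = 0.0807). These p-values are unadjusted and count every occurrence, and occurrences in 1 peak are not independent. Counting instead peaks with only A or only T, the odds ratios in the same order were 0.405, 0.979 and 0.723 (Fisher's exact p = 1.82e-06, 0.933 and 0.059, unadjusted).

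Many members without the exact 8-mer held a form of it that differs by 1 base. In the 1637 members that lacked GACCACCC in the middle 200 bp, the 24 forms that differ from it by 1 base were counted and compared with the lower-coordinate flank. This comparison was chosen after the values were seen. Of the 24 forms, 12 (50%) were more frequent in the peak by an exact McNemar test adjusted over the forms, and none was less frequent. With positions counted from 1 at the 5′ end of GACCACCC, A2G was the most frequent, in 14.1% of these members against 0.489% of flanks. C7A followed with 10.3% against 0.489%, A2C with 9.9% against 0.794%, and A5T, the divergent form GACCTCCC, with 6.96% against 0.611%. Every change at positions 3, 4 and 6 stayed at or under 1.34% in the peak, and none of them passed the test. The first 4 forms were each more frequent in members than in face-only peaks with Hand2 that lacked GACCACCC, which had 6.55%, 5.17%, 6.11% and 4.29% (Fisher's exact test, adjusted p = 3.28e-10, 2.62e-06, 0.00139 and 0.00788). Only 1 of the 24 differed from face and MNP peaks without Hand2: C8G, in 0.855% of members and 3.26% of that class (Fisher's exact test, adjusted p = 0.00201). Together, GACCACCC or 1 of the 4 most frequent forms was present in 53.4% of all members (51.3% to 55.5%), against 2.88% of flanks. The same share was 27.3% in face-only peaks with Hand2, 62.3% in face and MNP peaks without Hand2 and 43.3% in face and MNP peaks with Hand2. At any of the 24 forms or the exact 8-mer it was 67.0% in members and 10.8% in flanks. Both member shares include the 478 members with GACCACCC, so they are not shares of the 1637 without it.

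Among words of other factors, the members had homeodomain-type words more often than the face and MNP peaks without Hand2. They had the Hand2-type E-box less often than face-only peaks with Hand2. Members were selected for no overlap with Hand2 peaks and the classes with Hand2 for overlap. The share of a word that Hand2 binds is thus tied to the selection, and E-box p-values against those classes give no independent support. The share of words called was 18.2% (6 of 33) against face-only peaks with Hand2, 36.4% (12 of 33) against face and MNP peaks without Hand2 and 39.4% (13 of 33) against face and MNP peaks with Hand2. CAGATG, an E-box that Hand2 binds, was present in 17.1% of members (15.5% to 18.7%), compared to 27.7% of face-only peaks with Hand2 and 21.6% of face and MNP peaks with Hand2. The odds ratio was 0.538 (0.458 to 0.632, Fisher's exact test, adjusted p = 1.42e-12) against the first and 0.745 (adjusted p = 0.00598) against the second. In the middle 100 bp the second call was lost (0.745, adjusted p of 0.0509). Their own flanks had it in 15.1% of windows, and the difference did not pass the test on either side (exact McNemar test, adjusted p = 0.123 and 0.183). Against face and MNP peaks without Hand2, at 13.1%, the odds ratio of 1.37 passed the exact test (adjusted p = 0.0246). In the model with GC content and width it was 1.14 (n = 2115 and 901 peaks, adjusted p = 0.519). CAGCTG, a palindromic E-box, was above the flanks, with 17.6% of members against 9.65% on either side. It was present in 21.2% of face-only peaks with Hand2 (odds ratio 0.795, exact test, adjusted p = 0.0275).

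The homeodomain-type words were these. TAATTA, the core bound by many homeodomain factors, was in 8.61% of members against 3.77% of face and MNP peaks without Hand2 (odds ratio 2.4, exact test, adjusted p = 1.49e-05). The model with GC content and width gave 1.56 and an adjusted p of 0.0958. Its share was 9.9% in face-only peaks with Hand2 (exact test, adjusted p = 0.314). In the flanks of the members it was 6.34% and 5.39%, lower than in the peaks (exact McNemar test, adjusted p = 0.0166 and 1.64e-04). TGATTNAT, a Pbx/Hox type word, was in 3.74% of members, against 1.83% of face-only peaks with Hand2, 0.777% of face and MNP peaks without Hand2 and 1.59% of face and MNP peaks with Hand2 (odds ratios 2.08, 4.96 and 2.41, exact test, adjusted p = 0.00453, 1.49e-05 and 0.00193). The call against face and MNP peaks with Hand2 was lost in the model (odds ratio 1.83, adjusted p of 0.0868) and in the middle 100 bp (1.85, adjusted p of 0.234), where that against face-only peaks with Hand2 was also lost (2.17, adjusted p of 0.0981). Its share in the flanks was 3.43%, and the members did not pass the test against either flank (exact McNemar test, adjusted p = 0.849 and 0.725). TAATCC, of the Otx/Pitx type, was in 9.31% of members against 5.55% of face and MNP peaks without Hand2 (odds ratio 1.75, exact test, adjusted p = 0.00293), and in the model the odds ratio was 1.36 with an adjusted p of 0.205. CTTTGAT, bound by the Tcf/Lef factors of Wnt signaling, was in 5.67% of members, 5.76% of face-only peaks with Hand2, 2.66% of face and MNP peaks without Hand2 and 3.31% of flank windows. Against face and MNP peaks without Hand2 the odds ratio was 2.2 (exact test, adjusted p = 0.00178). With GC content and width in the model it was 1.73 (n = 2115 and 901 peaks, adjusted p = 0.0868). GGGCGG, a word of the Sp/Klf factors common in CpG-rich promoters, was in 14.2% of members, against 24.3% of face and MNP peaks without Hand2 and 31.3% of those with Hand2. The first of these differences ended with GC content and width in the model (odds ratio 0.965, n = 2115 and 901 peaks, adjusted p = 0.884).

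A test of every 8-mer, without a chosen list, led to the Gli word again. Members were compared with all other whole face peaks over 32896 8-mers. Of these, 35 (0.106%) were more frequent in members and 176 (0.535%) less frequent (Fisher's exact test, adjusted p under 0.05). The leading 8-mers were ACCACCCA, in 24.1% of members against 15.5% of the other peaks, and GACCACCC, in 22.6% against 15.4%. GCCACCCA, which overlaps the A2G form GGCCACCC in all but its last base, was in 13.9% against 9.76%. The other peaks pooled 3 unlike classes. In face and MNP peaks without Hand2 alone, ACCACCCA was in 27.5%, GACCACCC in 28.5% and GCCACCCA in 14.1%, each above the members. All were lower than in members in both classes with Hand2. ATCAATCA, a Pbx/Hox type word on the other strand, was in 30 members and 8 other peaks. The members' lower-coordinate flanks held it in 17 cases (exact McNemar test, p = 0.0789). Of the 176 less frequent 8-mers, 102 contained CG, and none of the 35 more frequent ones did. Part of this rested on 1 place: 43 whole face peaks between *Rhou* and *Gas8*, none of them a member. Without them, 13 8-mers were more and 25 less frequent in members.

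Some of the remaining 8-mers came from a repeat. AATTAGTG was in the middle of 87 members, and 67 of these were at least 50% soft-masked, that is, marked as repeats in the reference. The 14-mer CATTTTCTCAATTA, the most frequent one of more than 2 kinds of base over the members, was present in 60 of them, 2.84% (2.21% to 3.63%). It was in 1.69% of face-only peaks with Hand2, 2.11% of face and MNP peaks without Hand2 and 1.19% of face and MNP peaks with Hand2. The flanks of the members held it in 5 and 1 cases. All 60 members were at least 50% soft-masked, with a median of 90.8%. GACCTCCC was in 31 of these 60 (51.7%) and in 102 of the other 2055 members (4.96%), and GACCACCC was in 3 of 60 and 513 of 2055. The divergent form was thus more frequent in members with the 14-mer, and the exact form less frequent. CAGCTG was in 56 of the 60 and in 375 of the 2055. The 14-mer was chosen after the values were seen, and no test is given.

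The members lay far from genes more often than peaks shared with the MNP. Their median distance to the nearest protein-coding TSS was 38612 bp, compared to 48136 bp in face-only peaks with Hand2, 10855 bp in face and MNP peaks without Hand2 and 21933 bp in face and MNP peaks with Hand2. A midpoint within 1 kb of a TSS was found in 257 members, 12.2% (10.8% to 13.6%). The share was 12.7% in face-only peaks with Hand2 (Fisher's exact test, odds ratio 0.953, 0.779 to 1.17, adjusted p = 0.702), 30.5% in face and MNP peaks without Hand2 (0.315, adjusted p = 1.22e-30) and 28.9% in face and MNP peaks with Hand2 (0.34, adjusted p = 4.25e-32). Over 100 kb from any TSS lay 28.8% of members, against 16.6% of face and MNP peaks without Hand2 (exact test, adjusted p = 3.26e-12) and 21.3% of those with Hand2 (adjusted p = 4.01e-06). Of the members, 1054 midpoints were intergenic, 856 intronic, 137 in untranslated exons and 68 in coding exons. The coding share of 3.22% was above the 1.36% of face-only peaks with Hand2 (odds ratio 2.42, exact test, adjusted p = 9.29e-04) and below the 5.88% of face and MNP peaks without Hand2 (adjusted p = 0.00236). The median GC content was 49.1% in members, 50% in face-only peaks with Hand2, and 54.9% and 55.3% in the face and MNP classes without and with Hand2. Peaks at least 50% soft-masked made up 6.67% of members and 3.59% of face-only peaks with Hand2 (odds ratio 1.92, exact test, adjusted p = 1.26e-04). Median widths were 223, 220, 224 and 221 bp in members, face and MNP peaks without Hand2, face-only peaks with Hand2 and face and MNP peaks with Hand2.

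**Figure D3:**
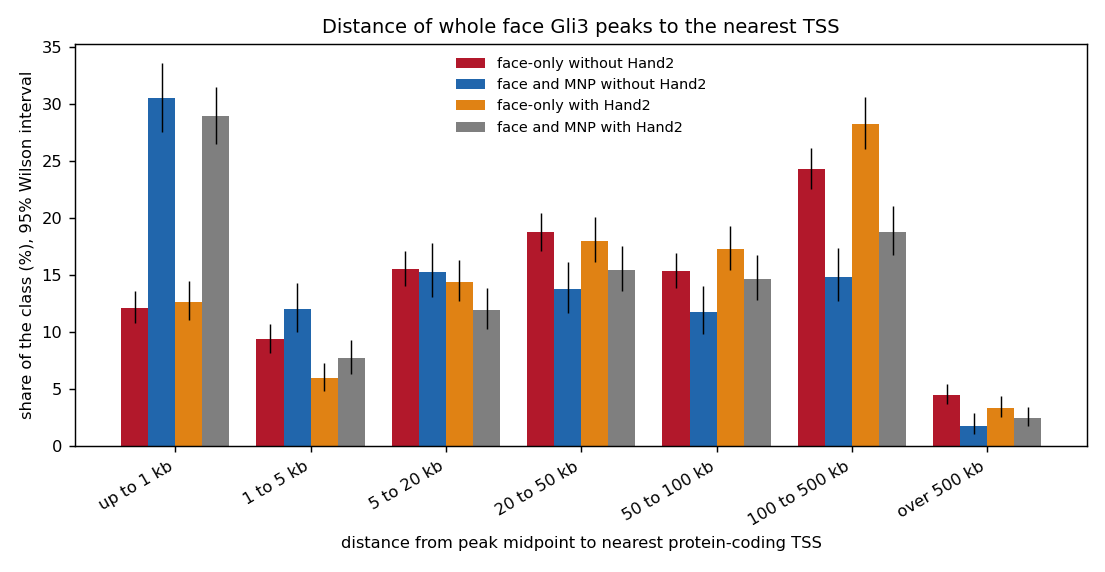
Share of each class (%, y axis, with 95% Wilson intervals) by distance of the peak midpoint from the nearest protein-coding TSS (x axis). Face-only peaks without Hand2 had 12.2% of their peaks within 1 kb and 24.3% between 100 and 500 kb.

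Members with GACCACCC were compared with those without it. The 516 members with the 8-mer had a median TSS distance of 46404 bp, and the 1599 without it 37724 bp. Within 1 kb of a TSS lay 8.33% of the first and 13.4% of the second (odds ratio 0.588, Fisher's exact p = 0.0019, adjusted p = 0.0704 over 37 features chosen after the values were seen). No feature passed the adjusted test, E-boxes and homeodomain words included. That does not show that the 2 sets were alike.

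Every entry of the whole face list names 4 calls, replicates 1 and 2 each against a mock ChIP and against input, and each name carries a number. No source used here says what the number counts. It does not follow genome order (Spearman's rho with position 0.012 over 5752 peaks). Between replicates called against mock, rho was 0.603 over the members and 0.79 over the list, as a description over peaks that share libraries. The members had higher numbers: a median of 4757 in replicate 1 and 4248 in replicate 2. The medians were 4239 and 3960 in face-only peaks with Hand2, 1487 and 1541 in face and MNP peaks without Hand2, and 1367 and 1313 in face and MNP peaks with Hand2. In the lower-numbered 50% of the list in replicate 1 lay 30.1% of members, against 34.8% of face-only peaks with Hand2 (Fisher's exact p = 0.00322), 79.5% of face and MNP peaks without Hand2 (p = 1.55e-142) and 80.2% of those with Hand2 (p = 1.94e-183).

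The list was split into 4 equal bins by number. By replicate 1, from low to high, GACCACCC was in 16.5%, 23.2%, 22.6% and 23.4% of members. In face and MNP peaks without Hand2 it was in 36.4%, 24.4%, 15.7% and 12.1%. By replicate 2 the shares were 22.7%, 18.6%, 21.9% and 25.5% in members and 34.1%, 22.9%, 23.1% and 23.2% in face and MNP peaks without Hand2. In that class the first bin had the highest share in both replicates, and in members the last bin did. The difference between the 2 classes over the bins was not tested. Within bins, the Mantel-Haenszel odds ratio of members against face-only peaks with Hand2 was 4 in replicate 1 (3.18 to 5.02, n = 2115 and 1475 peaks, p = 5.19e-36) and 3.92 in replicate 2 (p = 2.14e-35). Against face and MNP peaks without Hand2 it was 0.858 in replicate 1 (0.689 to 1.07, n = 2115 and 901 peaks, p = 0.206) and 0.771 in replicate 2 (0.62 to 0.96, p = 0.0252). The call of a lower share in members than in that class was therefore lost in replicate 1 within bins. The pooled odds ratio covers bins that differ in direction. By replicate 1 the members were lower in bins 1 and 2 and higher in bins 3 and 4, and by replicate 2 they were higher only in bin 4.

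**Figure D4:**
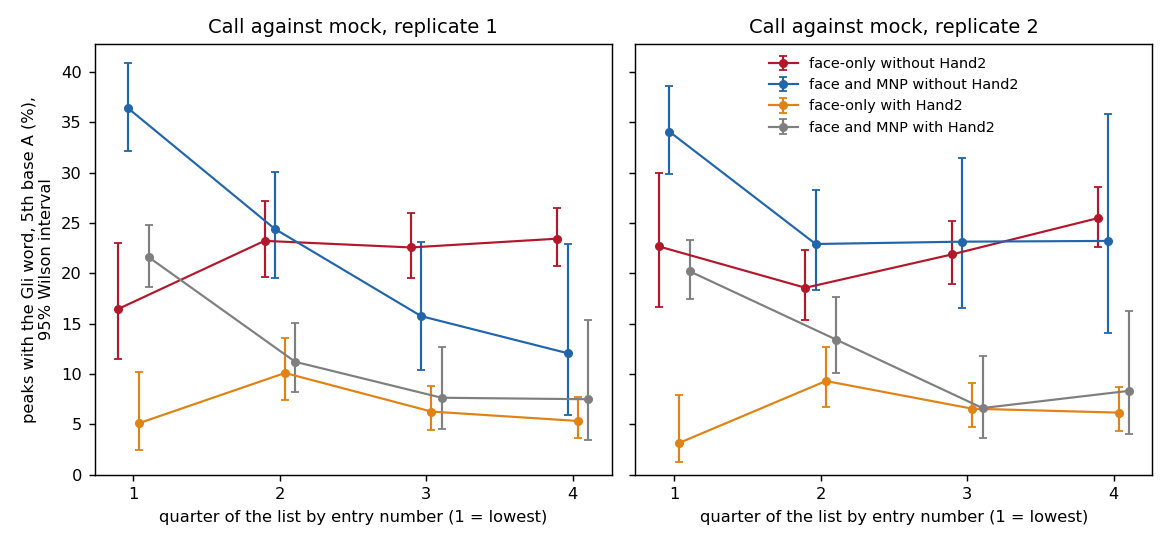
Share of peaks with GACCACCC (%, y axis, with 95% Wilson intervals) in 4 equal bins of the whole face list by entry number (x axis, 1 = lowest), for the calls of each replicate against mock (left and right) and the 4 classes. Face-only peaks without Hand2 stayed between 16.5% and 25.5% over the bins of both replicates.

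Genes on either side of the members included many regulators of the upper face. Each peak was assigned the nearest protein-coding TSS on each side. In this way 3154 of 21924 genes (14.4%) were next to a member, 2443 of them next to 1 only. Of 28 upper face and frontonasal regulators, 19 (67.9%) were next to a member. Of the same 28 genes, 7 (25%) were next to a face and MNP peak without Hand2, against 7.28% of all genes. Next to a face-only peak with Hand2 were 13 (46.4%), against 9.75% of all genes. Next to a face and MNP peak with Hand2 were 11 (39.3%), against 8.73% of all genes. Relative to all genes, the list stood no higher in members than in face-only peaks with Hand2. Of the 19, 6 had a member and no other whole face peak beside them, compared to 1743 of all 3154 genes next to a member. These genes have long surroundings (median of 557878 bp between the neighboring TSSs, against 95090 bp for all genes), which gives a peak more room to fall beside them. No test of the lists was made, and the counts stand as a description beside the shares of all genes.

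**Figure D5:**
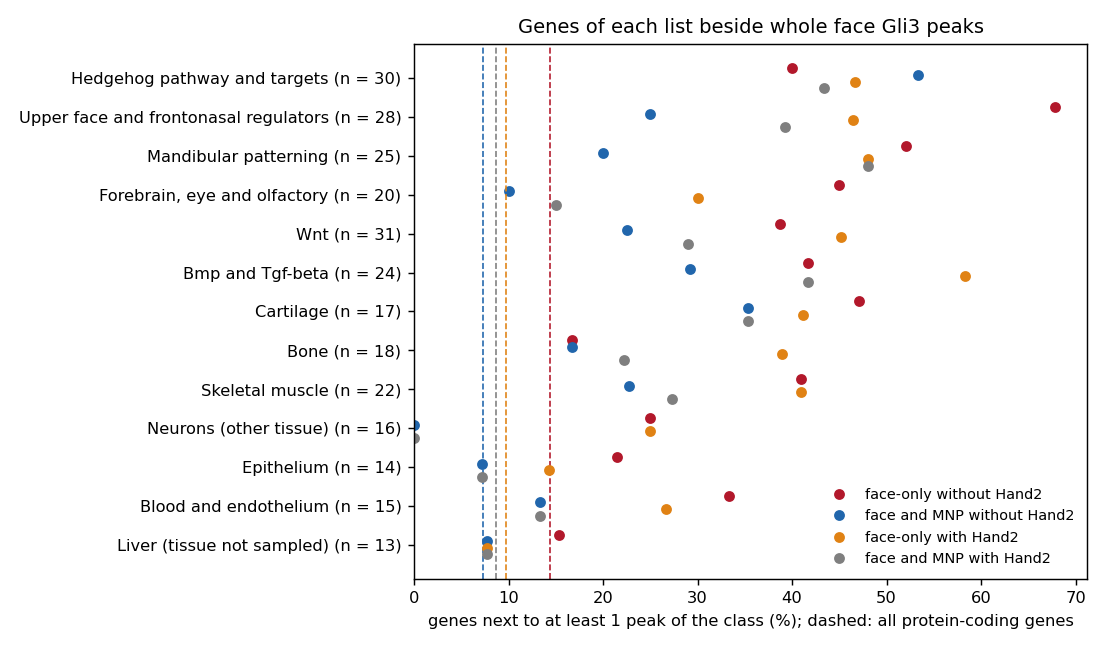
Share of the genes of each list (%, x axis) with at least 1 peak of a class beside them (points), with all protein-coding genes as dashed lines in the color of the class. For face-only peaks without Hand2 the upper face and frontonasal list stood at 67.9% and all genes at 14.4%.

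Among the upper face genes the closest members lay in an intron of *Lhx6*, a LIM homeobox gene of maxillary and mandibular mesenchyme, 2678 bp downstream of its TSS. Next were *Nr2f2*, a nuclear receptor gene, 2786 bp upstream, *Pax9*, a paired box gene required for palate and teeth, 5529 bp downstream within an intron, and *Alx1*, a homeobox gene of the frontonasal mesenchyme, 6142 bp downstream in an untranslated exon. None of these 4 closest peaks held GACCACCC or GACCTCCC. *Pax9* had 4 members in all, 2 of them with GACCACCC, and *Nr2f2* had 5 with none. *Pax9*, *Alx1* and *Lhx6* had no other whole face Gli3 peak beside them.

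The Hh genes were shared between the classes. Of 30 genes of the Hh pathway and its targets, 12 (40%) lay beside a member. Beside face and MNP peaks without Hand2 lay 16 (53.3%). Beside the face-only and the face and MNP peaks with Hand2 lay 14 (46.7%) and 13 (43.3%). Of all genes, 14.4% lay beside a member, and 7.28%, 9.75% and 8.73% beside a peak of the other classes in that order. Relative to those shares, the Hh genes were least frequent beside members. None of the 12 beside a member had members only, compared to 1743 of all 3154 genes next to a member. *Hhip* had 7 members over 0.718 Mb, and the closest, 1904 bp from the TSS in an intron of *Hhip*, had low entry numbers (413 and 1190). Of the 7, 2 held GACCACCC. *Ptch1* had 3 members beside 9 face and MNP peaks with Hand2, and its closest is the sequence printed above. *Foxd1* and *Maf* had 1 member each, at 121544 and 457618 bp. The closest member to a Hh gene lay 388 bp upstream of *Ccnd2*, the cyclin D2 gene, and *Foxf1*, a forkhead target, had 2 members, the closer 10929 bp upstream.

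Mandibular patterning genes also lay beside members, although the peaks were not in the MNP lists. Of 25, 13 (52%) were next to a member, against 14.4% of all genes. Beside face and MNP peaks without Hand2 lay 5 (20%, against 7.28% of all genes). Both the face-only and the face and MNP peaks with Hand2 had 12 (48%), against 9.75% and 8.73% of all genes. Relative to those shares, the list stood lower in members than in both classes with Hand2 and higher than in face and MNP peaks without Hand2. The closest were 5286 bp from *Dlx2*, a homeobox gene of the pharyngeal arches, 6531 bp from *Jag1*, a Notch ligand gene, 9476 bp upstream of *Ednra*, the receptor of the endothelin signal that precedes Hand2, and 9582 bp from *Osr1*. Only the peak of *Ednra* among these 4 held GACCACCC. *Isl1* had 4 members.

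Forebrain, eye and olfactory genes were next to members in 9 of 20 cases (45%), against 14.4% of all genes. They were next to face and MNP peaks without Hand2 in 2 (10%, against 7.28% of all genes). For the face-only and the face and MNP peaks with Hand2 it was 6 (30%, against 9.75%) and 3 (15%, against 8.73%). The closest lay in an intron of *Nkx2-2*, a homeobox gene of the ventral neural tube, 5950 bp from its TSS, and it held GACCACCC. *Otx2*, *Nkx6-2* and *Nkx2-1* followed at 40524, 53929 and 77957 bp. Of the 9 genes, 4 had members and no other whole face peak, compared to 1743 of all 3154 genes next to a member.

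Wnt and Bmp genes were also beside members. Of 31 Wnt genes, 12 (38.7%) were next to a member, against 14.4% of all genes. Face and MNP peaks without Hand2 lay beside 7 (22.6%, against 7.28% of all genes). For the face-only and the face and MNP peaks with Hand2 it was 14 (45.2%, against 9.75%) and 9 (29.0%, against 8.73%). Relative to those shares, the list stood lowest in members. Closest to a member was *Sfrp1*, which encodes a secreted Wnt inhibitor, with its peak 62 bp upstream of the TSS and no other whole face peak. *Wnt10a*, *Tcf7l2* and *Wnt11* followed at 3076, 3367 and 3866 bp. Of 24 Bmp and Tgf-beta genes, 10 (41.7%) were next to a member, against 14.4% of all genes. Next to a face-only peak with Hand2 were 14 (58.3%), against 9.75% of all genes. *Id4*, which encodes an inhibitor of basic helix-loop-helix factors, had GACCACCC in a peak over its coding exon, 602 bp downstream of the TSS. *Id2*, *Id3* and *Tgfb2* followed at 4216, 38167 and 56024 bp.

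Lists of differentiated tissues ranged more widely. Of all genes, 14.4% lay next to a member and 9.75% next to a face-only peak with Hand2. Face-only peaks with Hand2 lay beside 41.2% of the cartilage, 38.9% of the bone and 40.9% of the skeletal muscle genes. Relative to the shares of all genes, each of these 3 lists stood lower in members than in any other class. Of 17 cartilage genes, 8 (47.1%) were next to a member, with *Sox5* (6124 bp, 5 members), *Hapln1*, *Matn1* and *Runx3* closest. *Hapln1*, which encodes a link protein of cartilage matrix, had a member with GACCACCC in an intron, 19826 bp from its TSS. Of 18 bone genes, 3 (16.7%) were next to a member, near the 14.4% of all genes. Among the 3 were *Runx2*, the master regulator of osteoblasts (3761 bp), and *Twist1* (402614 bp). Of 22 skeletal muscle genes, 9 (40.9%) were next to a member, the closest within a coding exon of *Myod1*, the myogenic regulator, 471 bp from the TSS. Members also lay 7001 bp from *Six4* and 65359 bp from *Pax7*, and the peak of *Pax7* held GACCACCC.

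Lists of other cell types that the dissected tissue could contain were also counted. Of 16 neuronal genes, 4 (25%) were next to a member (*Isl1*, *L1cam*, *Nefm* and *Stmn2*). Of 15 blood and endothelial genes 5 (33.3%) were, with *Klf1*, *Gata1*, *Cdh5* and *Ptprc* closest. Of 14 epithelial genes 3 (21.4%) were (*Epcam*, *Grhl3* and *Trp63*), and of 13 liver genes, a tissue not sampled, 2 (15.4%) were (*Ahsg* and *Apob*). The liver list stood near the 14.4% of all genes. Its genes had a median of 77537 bp between the neighboring TSSs, against 341916 bp in the cartilage list and 370140 bp in the Bmp and Tgf-beta list. Only the epithelial list had shorter surroundings, at 71592 bp. *Apob* lay 1890262 bp from its closest member.

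The genes with the most members had long surroundings and shared their peaks with a neighbor. *Tshz3*, a zinc-finger transcription factor gene, had 9 members over 1.89 Mb, and 7 of them also lay beside *Zfp536*, its neighbor. Of the 9, 4 held GACCACCC, among them the peaks chr7:37333563-37333773 and chr7:37335321-37335527. *Med13l* had 8 members and *Tbx3*, a T-box gene of limb and face, 7, all 7 shared with *Med13l*, and none of the 7 held GACCACCC. *Tcf7l2*, which encodes a Tcf/Lef factor, had 7, 3 of them with GACCACCC. *Flrt2* had 7 over 4.93 Mb, in surroundings of 6410302 bp. *D630036H23Rik* and *Meox2*, a mesoderm homeobox gene, shared 6 members, as many as *Prickle1* and *Sel1l* had.

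Members were mostly isolated along the chromosomes. Of the 2115, 1766 had no other member within 50 kb. The rest formed 151 pairs, 13 runs of 3 and 2 runs of 4. The runs of 4 lay beside *Nfil3* and *Ror2*, over 75.5 kb with 2 peaks holding GACCACCC, and beside *Cxxc5* and *Psd2*, over 45.6 kb with none. The density was 0.67 to 1.14 members per Mb on the autosomes, 0.21 on chromosome X and 0.0109 on chromosome Y. The whole face list was also sparse on chromosome X, with 72 peaks, 36 of them members. On chromosome 1 it had 346 peaks, 131 of them members.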

How the data were processed

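Per the labels, chromatin from E11.5 whole face or MNP was precipitated with FLAG antibody. The authors mapped reads to mm10 (GRCm38) with BWA and merged replicate peaks with bedtools, and the submitters' processing notes also name HOMER, without versions. For the whole face list the peak caller was not given in the sources used here. The deposited lists hold start and end positions (counted from 0, printed from 1) and entry names, with no score, height or read count, so depth is unknown. The 6 samples fall into 3 groups of 2, each group in 1 list.

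Overlap meant at least 1 bp. Sequence and soft-masking came from the RefSeq GRCm38 reference and genes from GENCODE M21 (protein-coding). Exact words were searched on both strands in the middle 200 bp. Flanks were windows of the same width 2 kb away. Shares have Wilson intervals. Classes were compared with Fisher's exact test, peaks with flanks by an exact McNemar test, and p-values were adjusted by Benjamini-Hochberg at 0.05. The programs were tested on simulated data. Python 3.11.15, numpy 2.4.6, scipy 1.17.1, statsmodels 0.14.6 and matplotlib 3.10.9 were used. Members, words and gene lists were chosen with earlier results of these data known. Genes named are the study's targets next to a member, the 4 of each list closest to a member, and those with the most members. Sequences were chosen by copies of GACCACCC and nearness to Hh and upper face genes. Some genes that this rule names, and their sequence, are not reported here. Alternatives tried were stricter and wider overlap, whole peaks, the middle 100 bp, leaving out promoters or repeats, a logistic model with GC content and log2 width, other promoter, flank and run distances, and the single nearest TSS. The McNemar tests against flanks and the comparisons within 4 bins of the entry number, without 1 group of peaks and with moved peaks were added after the values were seen.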

Additional observations from a re-analysis of the deposited data

How the results depend on the processing

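No paired analysis was possible because each list holds both replicates merged. The class held 2115 peaks, 1920 where peaks within 500 bp counted as overlapping and 2253 where at least 50% of a peak had to be covered. Of 99 word tests 31 passed, against 19 when promoter peaks were left out, 16 in the logistic model and 15 in the middle 100 bp. The GACCACCC odds ratio against each other class, pooled where bins were used, kept its direction under each alternative in which it was recomputed (not with 50% coverage). It lost its call only against face and MNP peaks without Hand2 within entry-number bins of replicate 1 (odds ratio 0.858). Single bins of that comparison differed in direction, with members higher in bins 3 and 4 of replicate 1 and bin 4 of replicate 2. Against face and MNP peaks with Hand2, members were lower in bin 1 of replicate 1 (16.5% against 21.6%). The 35 more frequent 8-mers became 19 without promoter peaks and 13 without the 43 peaks between *Rhou* and *Gas8*, where the 176 less frequent ones became 25. The promoter share against face-only peaks with Hand2, with an odds ratio of 0.953 within 1 kb, became 1.2 within 5 kb (p adjusted over 6 tests, 0.0389), so its direction depends on the distance. Genes next to members numbered 3154, and 1368 by the single nearest TSS within 100 kb. Runs numbered 166 with gaps under 50 kb and 81 under 20 kb. The cause of these changes was not tested. Without read counts, weak peaks could not be told from strong ones.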
